A study of Mus musculus with 12 samples.

Results

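The secreted Wnt inhibitors measured here were 9 genes, namely the secreted frizzled-related proteins *Sfrp1*, *Sfrp2*, *Sfrp4*, *Sfrp5* and *Frzb*, the Wnt inhibitory factor *Wif1*, and the Dickkopf genes *Dkk1*, *Dkk2* and *Dkk3*. They were found by gene name among the non-control probes of an exon array, and all 9 were present, with 45 of the 165865 probes and 9 of the 19505 genes used. *Sfrp4* had been picked for its high signal in the base, so its differences from the base are given as a description with no test. The samples were the turns of the cochlear spiral, called apex, middle turn and base from its tip downwards, taken from male C57BL/6 mice aged 6 weeks, and the labels name no treatment and no altered gene. Each turn had 4 arrays, labeled from 25 ng of total RNA, and 4 mice were used, so that the turns shared mice. The dissected tissue held the lateral wall with the stria vascularis and spiral ligament together with the organ of Corti, so that each value is a mixture of cell types, and fewer cells of a type and less RNA per cell cannot be told apart. The 4 arrays of each turn were on a slide of their own, and slide and turn therefore cannot be told apart in any comparison of turns. The labels number the samples of a turn from 1 to 4, and p-values measure the spread between these samples.

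Wnt ligands are secreted proteins that bind frizzled receptors and, in the canonical branch, the co-receptors Lrp5 and Lrp6, which stabilizes beta-catenin and lets it act with TCF and LEF factors on target genes. The secreted frizzled-related proteins carry a cysteine-rich domain like that of the receptors and bind Wnts outside the cell, and *Wif1* binds Wnts through a domain of its own. *Dkk1* and *Dkk2* bind the Lrp co-receptors instead, while *Dkk3* is a divergent member of its family. In the cochlea, Wnt signaling is known for its part in the growth and patterning of the sensory epithelium.

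The probes are 60 bases long and each is a separate reading of its exon. The sequences below are those of some of the probes of *Sfrp4*, *Sfrp1*, *Sfrp2* and *Wif1*, and the gene values rest on the other probes as well. The 5 *Sfrp4* probes shown lie between bases 19715687 and 19721998 of chromosome 13 on the plus strand (mm9), start at positions 643, 720, 790, 988 and 1053 of the transcript, and hold no stop codon in 1 shared reading frame. No 16-base word of them occurs in a probe of another gene. The search covered probe sequences only, and not the rest of the transcripts of other genes.
Sfrp4 probe 1: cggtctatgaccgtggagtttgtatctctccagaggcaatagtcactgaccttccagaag
Sfrp4 probe 2: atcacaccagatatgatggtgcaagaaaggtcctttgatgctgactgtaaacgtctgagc
Sfrp4 probe 3: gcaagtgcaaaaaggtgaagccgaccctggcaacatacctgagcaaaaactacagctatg
Sfrp4 probe 4: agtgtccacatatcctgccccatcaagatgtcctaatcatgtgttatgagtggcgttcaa
Sfrp4 probe 5: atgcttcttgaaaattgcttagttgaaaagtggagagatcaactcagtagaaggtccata
The *Sfrp1* probes below start at positions 712 and 845 of the transcript, on chromosome 8, and belong to the member with the largest gene-level difference in the opposite direction to *Sfrp4*.
Sfrp1 probe 1: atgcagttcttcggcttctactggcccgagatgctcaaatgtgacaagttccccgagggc
Sfrp1 probe 2: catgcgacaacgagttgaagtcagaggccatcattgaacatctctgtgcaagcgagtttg
Of the *Sfrp2* probes, at positions 494 and 744 on chromosome 3, the first was equally bright in all turns and the second was not.
Sfrp2 probe 1: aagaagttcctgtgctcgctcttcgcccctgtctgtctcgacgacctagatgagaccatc
Sfrp2 probe 2: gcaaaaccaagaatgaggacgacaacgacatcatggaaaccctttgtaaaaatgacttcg
The *Wif1* probes are neighbors on chromosome 10, at positions 896 and 1009, and the second of them differed far less between turns than the first. A 16-base word of the second also occurs in 2 probes of other genes, and none of the first does. The *Wif1* probe at position 560 likewise shares a word with 2, and it differed 4.09-fold between apex and base. Those at positions 817 and 1622 share a word with 1 each, and they differed 3.35-fold and 4.43-fold. Of the *Sfrp2* probes shown, the first shares no such word and the second shares a word with 1 probe. The part of shared words in these differences was not tested.
Wif1 probe 5: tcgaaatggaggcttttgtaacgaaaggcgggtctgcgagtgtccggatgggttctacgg
Wif1 probe 6: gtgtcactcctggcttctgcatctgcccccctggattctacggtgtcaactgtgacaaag
No letters are in capitals in these probes, since no part of them was singled out.

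On most of the 12 arrays the signals were alike in quality. The 75th percentile of the processed signal before scaling ran from 534.6 to 722.1, from 77.4% to 81.4% of the spots on an array were marked well above background, and no spot of a gene was saturated. Within a turn, the SD of the median gene was 0.106 to 0.126 on the log2 scale, and the number of arrays limits the precision. Values below are signals after each array was scaled to a common 75th percentile, averaged over a gene's probes on the log2 scale. Apex array 4 stood apart, with a summed signal of 6203 for 8 bone genes against 1589 to 2283 on the other apex arrays, and 4454 for 6 bone marrow genes against 478 to 1675. Base array 3 had a summed signal of 20685 for 6 neuron genes against 4977 to 9830 on the other base arrays. Its 7 measured fibroblast genes summed to 24644 against 33966 to 37066. Results that change without these arrays are given with and without them.

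Against the base, 5 of the 8 tested members were higher in the apex and none was higher in the base, at an adjusted p under 0.05 in limma with Benjamini-Hochberg adjustment over all genes. Of all 19505 genes, 39.2% were called in this comparison, 17.6% as higher in the apex. The 5 were *Sfrp1*, *Sfrp2*, *Wif1*, *Dkk2* and *Frzb*, and *Sfrp1*, *Sfrp2* and *Wif1* were also at least 2-fold higher, as were 3.32% of all genes. The arrays of apex and base did not overlap for the same 5 members, against 38.3% of all genes. The median log2 difference between apex and base was 0.73 over the 8 members and -0.04 over all genes. Under scaling to the spike-in probes or to the median, 4 members were higher in the apex and 1, *Dkk3*, in the base, and *Frzb* was no longer called. With linear averaging over probes the split was also 4 to 1, with *Dkk3* called and *Sfrp2* not.

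**Figure D1:**
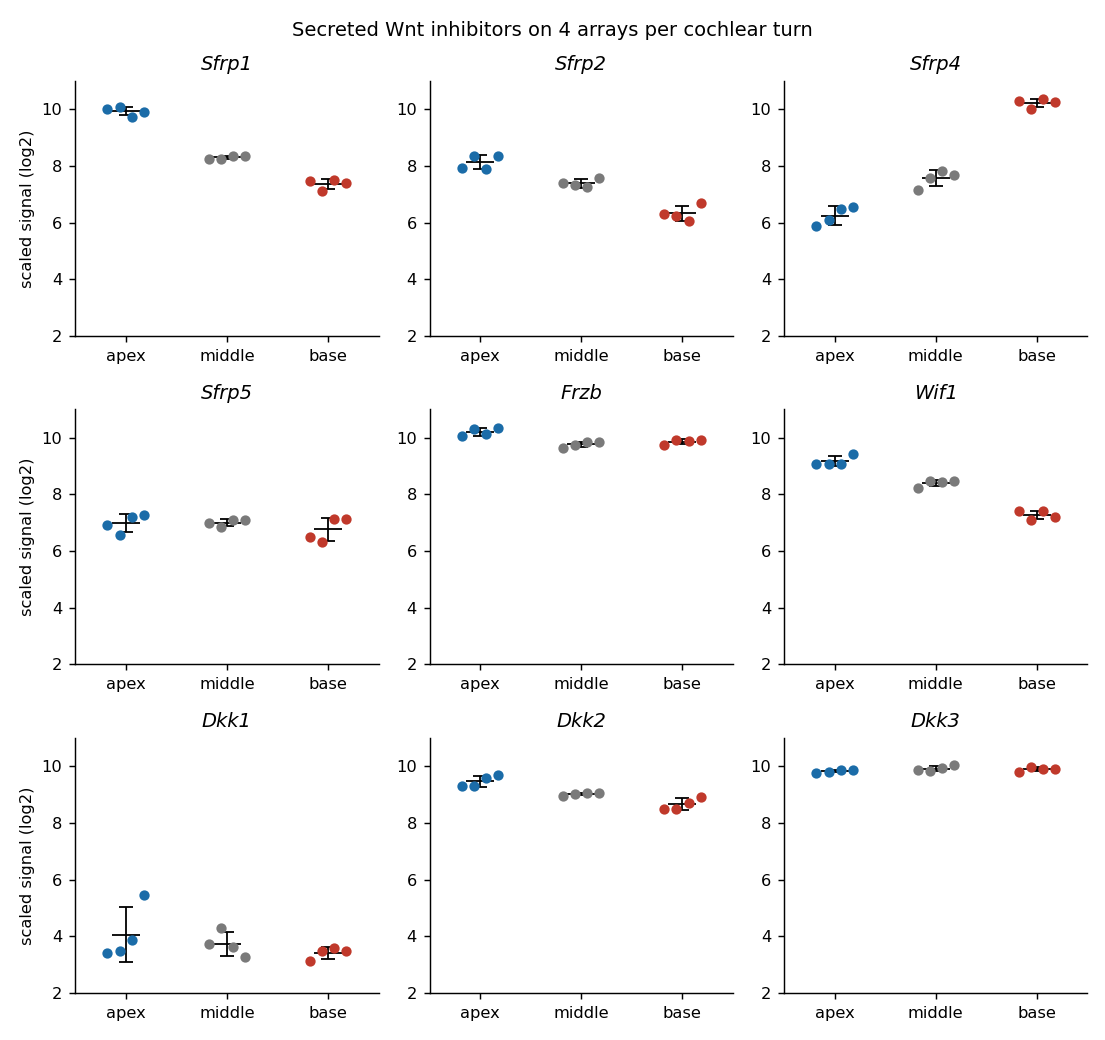
Scaled signal (log2) of the 9 secreted Wnt inhibitors on the 4 arrays of each turn. Points are arrays, and the bars are the mean ± SD of 4 arrays. *Sfrp1*, *Sfrp2*, *Wif1* and *Dkk2* step down from apex to base, *Sfrp4* has its lowest mean signal, 77.5, in the apex and its highest, 1203, in the base, and *Dkk3* stays between 874 and 1045 on every array.

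*Sfrp4*, which binds Wnts and is also known for its part in bone, had signals of 58.5, 67.4, 89.1 and 94.7 on the 4 apex arrays. The middle arrays read 143, 193, 228 and 206, and the base arrays 1240, 1033, 1311 and 1226. The 3 turns did not overlap, and the order apex, middle turn, base held for every array. Mean signals were 77.5 ± 17.3 (SD, n = 4) for the apex, 192 ± 35.9 for the middle turn and 1203 ± 119 for the base. The base was thus 15.8-fold above the apex and 6.32-fold above the middle turn, which describes the values by which the gene was picked. The middle turn was 2.50-fold higher than the apex (log2 difference -1.32 for apex minus middle, standard error 0.174, adjusted p = 0.0018 in limma). Base values enter this contrast only through the shared estimate of the spread. A base signal is high relative to the other turns, however, so the contrast may not be free of the pick.

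Each of the 6 *Sfrp4* probes was higher on every base array than on every apex array, by between 8.80-fold and 22.7-fold. The probe at position 1053, for example, had signals of 19.0, 33.0, 53.3 and 47.6 in the apex. In the base it had 794, 704, 877 and 863. In the apex the probe at position 643 was well above background on 2 of 4 arrays and that at position 1053 on 3, while the other 4 were well above it on all. Near the background a fold depends on how the background was handled. With the normexp correction, which also added 50 to each signal, the log2 difference of the gene between apex and base was -3.06 in place of -3.98. An added constant by itself shrinks a fold, and its share in this change was not tested.

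**Figure D2:**
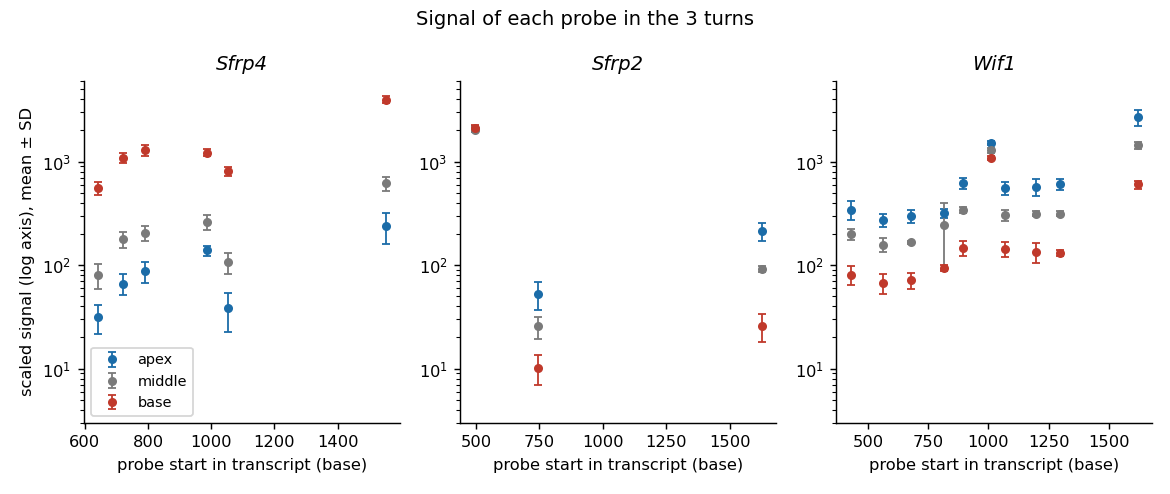
Signal of each probe of *Sfrp4*, *Sfrp2* and *Wif1* (log axis, mean ± SD of 4 arrays) against the probe's start in the transcript, with 1 color per turn. Brightness of different probes cannot be compared. All 6 *Sfrp4* probes keep the turns in 1 order, whereas the *Sfrp2* probe at position 494 and the *Wif1* probe at position 1009 separate the turns least.

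*Sfrp1*, another Wnt-binding member of the family, ran the opposite way. Its apex signals were 1031, 1079, 854 and 965, its middle-turn signals 307, 304, 330 and 329 and its base signals 176, 139, 182 and 170. No array of a turn overlapped with another turn. The apex was 5.89-fold higher than the base (log2 difference 2.56, standard error 0.095, adjusted p = 4.5e-08) and 3.09-fold higher than the middle turn (adjusted p = 2.4e-05), and the middle turn was 1.91-fold higher than the base (adjusted p = 1.2e-04). All 3 probes were higher in the apex, by 6.85-fold, 7.91-fold and 3.78-fold. On the log2 scale the middle turn lay 36.5% of the way from base to apex for *Sfrp1* and 66.8% of that way for *Sfrp4*. Within an array, where scaling has no influence, the log2 signal of *Sfrp1* minus that of *Sfrp4* ran from 3.26 to 4.14 over apex arrays, from 0.53 to 1.10 over middle arrays and from -2.90 to -2.81 over base arrays. The step between turns, and not the level of that difference, can be read from it.

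*Sfrp2*, likewise a binder of Wnts, had apex signals of 245, 329, 237 and 324, middle-turn signals of 167, 160, 153 and 193 and base signals of 79.7, 74.8, 67.4 and 104. The apex was 3.49-fold higher than the base (log2 difference 1.80, standard error 0.149, adjusted p = 7.9e-06), and the middle turn lay between, 2.08-fold above the base (adjusted p = 9.6e-04). Without base array 3 the middle turn was 1.96-fold above the base (adjusted p = 0.0014). The apex was 1.68-fold above the middle turn (adjusted p = 0.012). The 3 probes disagreed. At position 494 the signals were 2123, 2081, 1854 and 2214 in the apex and 2243, 2092, 1971 and 2215 in the base, which overlap (adjusted p = 0.70). At position 1628 they were 184, 269, 176 and 226 in the apex against 22.2, 18.1, 26.5 and 36.5 in the base, an 8.44-fold difference (adjusted p = 3.4e-06), with 1 of the 4 base arrays well above background there. At position 744 the probe was not well above background on any base array and read 5.20-fold higher in the apex (adjusted p = 1.7e-04). Each base array counts there at the probe's own signal, which was above the lowest signal well above background on the array. The value is therefore the plain difference and sets no lower bound. The gene's difference therefore rested on the probes at positions 744 and 1628. With the linear mean over probes, in which the bright probe dominates, the log2 difference between apex and base was 0.11 (adjusted p = 0.26), that between middle turn and base -0.01 (adjusted p = 0.94) and that between apex and middle turn 0.12 (adjusted p = 0.28), so that all 3 calls were lost. Without that probe the difference between apex and base was 2.73, an alternative chosen after the values were seen.

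*Frzb*, also named *Sfrp3*, differed less. Its apex signals were 1067, 1259, 1109 and 1299, its middle-turn signals 799, 865, 917 and 916 and its base signals 848, 968, 945 and 981. The apex did not overlap with the other turns, and the middle turn and the base overlapped. The apex was 1.26-fold above the base (log2 difference 0.34, adjusted p = 0.0055) and 1.35-fold above the middle turn (adjusted p = 0.0075), while the middle turn and the base did not differ beyond their spread (log2 difference -0.10, 95% interval -0.27 to 0.08, adjusted p = 0.40). Scaling to the spike-in probes turned the difference between apex and base to -0.08 (adjusted p = 0.55), and scaling to the median gave 0.22 (adjusted p = 0.053). The log2 signal of *Frzb* minus that of *Dkk3* on the same array, which no scaling moves, was between 0.25 and 0.49 in the apex and between -0.08 and 0.04 in the base.

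*Sfrp5* showed no difference past the threshold. Its apex signals were 121, 94.7, 146 and 156, its middle-turn signals 126, 115, 137 and 138 and its base signals 89.7, 79.7, 140 and 139, and all turns overlapped. The log2 difference between apex and base was 0.23 (95% interval -0.22 to 0.68, adjusted p = 0.44), an interval that holds differences of either sign. None of its 3 probes was called.

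*Wif1* was highest in the apex and lowest in the base. Its apex signals were 544, 546, 534 and 696, its middle-turn signals 303, 359, 350 and 351 and its base signals 169, 137, 169 and 148. No turns overlapped. The apex was 3.72-fold higher than the base (log2 difference 1.89, standard error 0.103, adjusted p = 5.0e-07), the middle turn 2.19-fold higher than the base (adjusted p = 6.0e-05) and the apex 1.70-fold higher than the middle turn (adjusted p = 0.0020). The middle turn lay 59.8% of the way from base to apex on the log2 scale. Apex array 4 was the highest *Wif1* value and the array with the bone signal, and without it the difference between apex and base was 3.49-fold (adjusted p = 9.7e-07).

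All 10 *Wif1* probes were called as higher in the apex, by between 3.35-fold and 4.60-fold in 9 of them. The probe at position 1009 had signals of 1523, 1435, 1483 and 1608 in the apex against 1145, 1053, 1089 and 1028 in the base, a 1.40-fold difference (adjusted p = 3.3e-04). Without it, again chosen after the values were seen, the log2 difference of the gene was 2.05. The probe at position 817 was 474 on middle array 2 and between 153 and 187 on the other middle arrays.

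*Dkk2*, which binds the Lrp co-receptors, had apex signals of 636, 630, 765 and 825, middle-turn signals of 499, 524, 535 and 529 and base signals of 357, 365, 417 and 487. The turns did not overlap. The apex was 1.76-fold higher than the base (log2 difference 0.81, standard error 0.112, adjusted p = 2.2e-04), and all 4 probes were called as higher in the apex, by between 1.61-fold and 1.98-fold. The smaller steps were 1.29-fold between middle turn and base (adjusted p = 0.037) and 1.36-fold between apex and middle turn (adjusted p = 0.029). The first was no longer called when any middle array or base array 1, 2 or 3 was left out, with adjusted p up to 0.11, and the second when apex array 3 or 4 or middle array 1, 2 or 4 was left out, with adjusted p up to 0.074. With scaling to the spike-in probes the log2 differences of *Dkk2* were 0.11 between middle turn and base (adjusted p = 0.57), 0.28 between apex and middle turn (adjusted p = 0.15) and 0.40 between apex and base (adjusted p = 0.026), the last still called. Scaling to the median left 0.31 between middle turn and base (adjusted p = 0.068), and linear averaging over probes 0.39 between apex and middle turn (adjusted p = 0.069).

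*Dkk3* had apex signals of 874, 895, 935 and 938, middle-turn signals of 931, 905, 984 and 1045 and base signals of 895, 1010, 954 and 953, and the turns overlapped. The log2 difference between apex and base was -0.06 (95% interval -0.19 to 0.06, adjusted p = 0.44). Of its 7 probes, that at position 3274 was 1.21-fold higher in the base (adjusted p = 0.011) and 6 were not called. With scaling to the spike-in probes, which shifted the median of all genes to -0.45, *Dkk3* stood at -0.48 (adjusted p = 0.0013), and with scaling to the median at -0.18 (adjusted p = 0.035). With linear averaging over probes, which leaves the scaling as it was, the difference was -0.23 (adjusted p = 0.0064). *Dkk1*, the best known Lrp antagonist, was close to background, with 2 of 16 apex spots, 1 of 16 middle-turn spots and 2 of 16 base spots well above it, and no fold is given. Its signals reached 44.2 on apex array 4 and ran from 8.67 to 19.5 on the other 11 arrays.

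**Figure D3:**
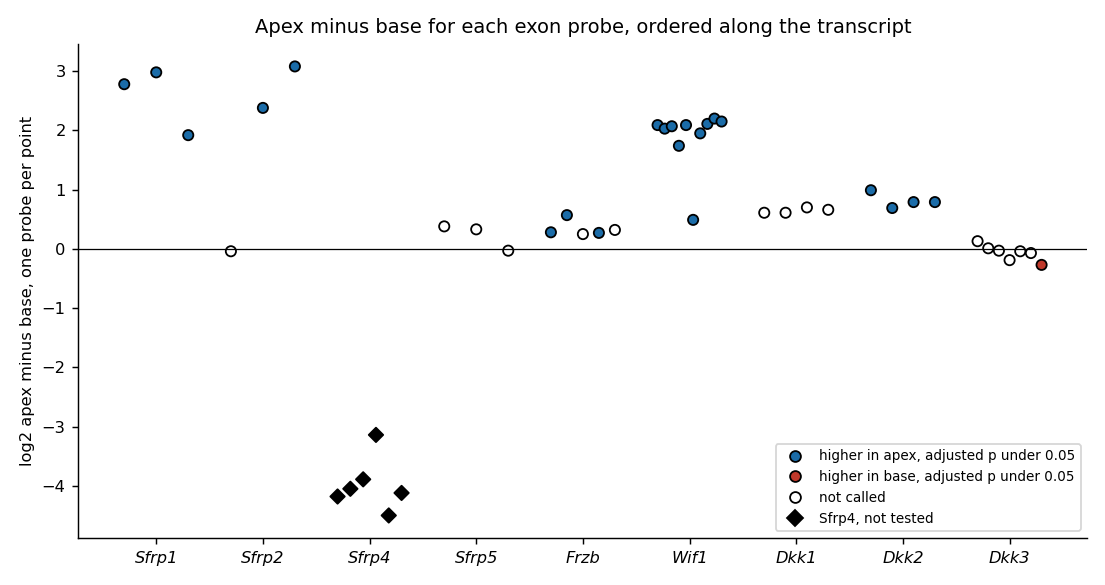
Log2 apex minus base of each of the 45 probes, ordered along the transcript within each gene. Filled circles passed an adjusted p under 0.05 in limma, open circles did not, and diamonds are the 6 untested *Sfrp4* probes, between -4.50 and -3.14. Of the other 39 probes, 22 were higher in the apex, 1 was higher in the base and 16 were not called.

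Counted by probe, 22 of the 39 probes of the 8 tested members favored the apex and 1 the base, where 34.4% of all 165865 probes were called. Probes of a gene read the same RNA and are not replicates. With scaling to the spike-in probes, which shifted the median of all genes to -0.45, the split was 16 to 8. Between the middle turn and the base, 4 of 8 members were called, *Sfrp1*, *Sfrp2*, *Wif1* and *Dkk2*, all higher in the middle turn, against 20.9% of all genes, or 11.7% in that direction. The median log2 difference was 0.34 over these members and 0.04 over all genes. With scaling to the spike-in probes 3 rose above the base and 1, *Frzb*, lay below it, where 805 of all genes rose and 6954 lay below. Between the apex and the middle turn, 6 of 9 members were called, 5 as higher in the apex, where 4.42% of all genes were, and *Sfrp4* as higher in the middle turn, where 7.59% were. The call of *Sfrp4*, the picked gene, carries the limit given above. With scaling to the spike-in probes, and likewise with linear averaging, 3 favored the apex and 1 the middle turn, and *Frzb* stood at 0.27 with spike-in scaling (adjusted p = 0.097). The comparisons share arrays, so that these counts are not independent of each other.

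The upstream sequences of the apex-higher members are shown because those genes moved in 1 direction and Wnt targets are read by TCF and LEF factors, whose core letters are CTTTG or, on the other strand, CAAAG. RefSeq (GRCm38.p6) gave a start site for 6 of the 9 members, *Frzb*, *Sfrp2*, *Dkk2*, *Wif1*, *Dkk1* and *Sfrp5*. The 250 bases before the start are given on the gene's own strand for those called as higher in the apex, with the core letters in capitals.
Wif1 upstream, chr10:121033754-121034003, plus strand: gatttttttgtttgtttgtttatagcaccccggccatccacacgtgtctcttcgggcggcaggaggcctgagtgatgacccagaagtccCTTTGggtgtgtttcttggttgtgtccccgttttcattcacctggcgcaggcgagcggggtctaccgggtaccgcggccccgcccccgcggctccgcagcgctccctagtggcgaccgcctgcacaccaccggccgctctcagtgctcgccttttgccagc
Dkk2 upstream, chr3:132085042-132085291, plus strand: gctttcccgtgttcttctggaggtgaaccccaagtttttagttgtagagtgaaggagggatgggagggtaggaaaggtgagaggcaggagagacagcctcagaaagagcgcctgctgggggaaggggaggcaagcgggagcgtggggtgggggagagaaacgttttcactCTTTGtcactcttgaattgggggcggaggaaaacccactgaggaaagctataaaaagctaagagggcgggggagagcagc
Frzb upstream, chr2:80447397-80447646, minus strand: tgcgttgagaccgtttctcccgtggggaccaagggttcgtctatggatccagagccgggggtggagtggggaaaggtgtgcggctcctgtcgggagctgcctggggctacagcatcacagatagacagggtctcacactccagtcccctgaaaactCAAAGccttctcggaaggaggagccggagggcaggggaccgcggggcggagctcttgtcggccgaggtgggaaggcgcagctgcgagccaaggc
Sfrp2 upstream, chr3:83766071-83766320, plus strand: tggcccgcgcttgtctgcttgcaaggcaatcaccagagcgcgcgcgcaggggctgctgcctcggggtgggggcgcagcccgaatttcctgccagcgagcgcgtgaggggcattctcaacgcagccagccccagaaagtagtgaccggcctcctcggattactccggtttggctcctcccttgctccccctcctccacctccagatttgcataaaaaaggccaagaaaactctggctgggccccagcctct
*Wif1*, *Dkk2* and *Frzb* had 1 match each and *Sfrp2* had none. Of the 32851 upstream windows of this length, 48.6% held at least 1 match, and 4 of the 6 member windows did. *Dkk1*, close to background on the array, had 4 matches. A match is a run of letters and not a bound site.

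Among 16513 genes that some turn showed well above background on each of its 4 arrays, the pattern most like that of *Sfrp4* was found by the root mean square difference of log2 signals, centered on each gene's mean of the 12 arrays. *Enpp6*, a choline-specific phosphodiesterase, was nearest at 0.246, followed by *Sult5a1*, a sulfotransferase, at 0.255, *Atp6v1g3*, a subunit of the vacuolar proton pump, at 0.328, *9030619P08Rik* at 0.426 and the keratin *Krt23* at 0.475. From apex to base, *Enpp6* had mean signals of 38.0, 90.7 and 467, and *Sult5a1* 133, 271 and 1582. A gene could enter this comparison through the base alone. In the apex *Sult5a1* had 23 of 24 spots well above background and *Krt23* 27 of 28, whereas *Enpp6* had 12 of 32, *9030619P08Rik* 9 of 12 and *Atp6v1g3* 2 of 12, so that the low apex signals of these 3 lie partly in the background. *Krt23* was 8.02-fold and *Sult5a1* 11.8-fold higher in the base, and no fold is given for the others. None of the other members was among the nearest genes, and *Sfrp1* ranked 16484 of the 16513. The points are 12 arrays that share their turns and slides, and the measure is a description.

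**Figure D4:**
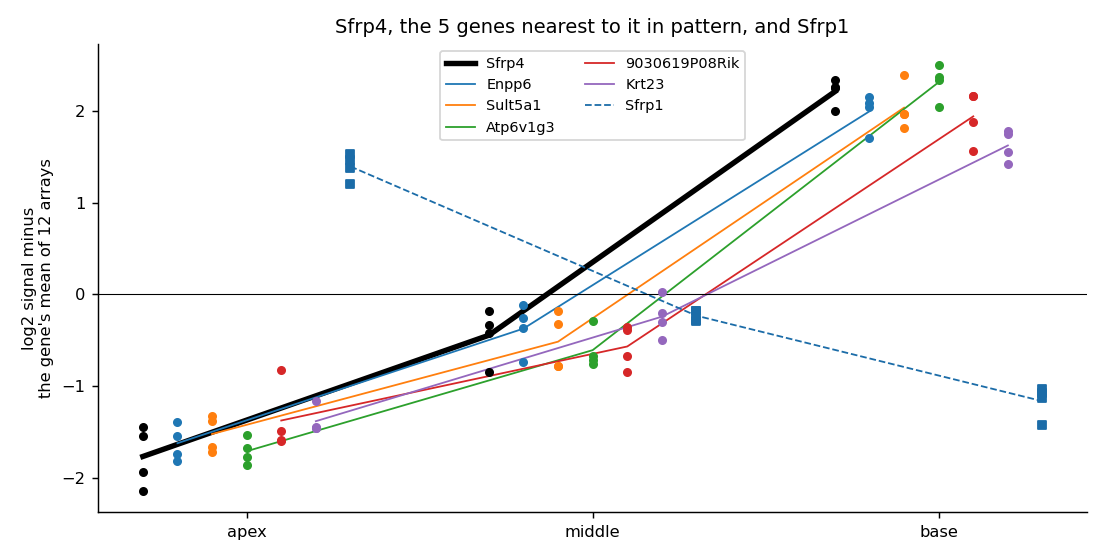
Log2 signal minus the gene's mean of 12 arrays for *Sfrp4*, the 5 genes with the smallest root mean square difference from it, and *Sfrp1* (squares, dashed). Points are the 4 arrays of a turn and lines join the turn means. The 6 base-high genes share the order of turns, with base values of 1.42 to 1.78 for *Krt23* and 2.00 to 2.34 for *Sfrp4*, and *Sfrp1* runs the other way.

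The other Wnt pathway genes were read from 6 lists of 85 genes, 84 of them measured. Between apex and base 48 were called, 28 favoring the apex and 20 the base, which is 57.1% where 39.2% of all genes were called. With scaling to the spike-in probes the split was 8 to 49, and to the median 20 to 26. Over all genes the splits were then 917 to 13393 and 2267 to 6290. The median log2 difference was 0.03 over these genes and -0.04 over all genes. At least 2-fold differences were found for 5 of the 84 genes, all higher in the apex, where 3.32% of all genes were. They were *Wnt3*, *Fzd10*, *Notum*, *Nkd1* and *Nkd2*.

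*Fzd10*, a Wnt receptor, had apex signals of 2069, 1797, 1797 and 1932, middle-turn signals of 949, 890, 1048 and 953 and base signals of 670, 482, 684 and 769. The turns did not overlap, and the apex was 2.95-fold higher than the base (adjusted p = 5.7e-06), a value that rests on 1 probe. Of 16 receptors and co-receptors, 6 favored the apex and 4 the base, together 62.5% where 39.2% of all genes were called.

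*Notum*, an extracellular enzyme that inactivates Wnts, had apex signals of 369, 435, 350 and 390, middle-turn signals of 187, 218, 233 and 230 and base signals of 141, 136, 122 and 152. Its apex was 2.80-fold above its base (adjusted p = 1.3e-06), with no overlap between turns. It was the 1 gene called of the 11 other extracellular antagonists measured, or 9.09% where 39.2% of all genes were called. *Kremen1*, the brightest of that list, differed by -0.18 on the log2 scale (adjusted p = 0.069).

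*Wnt3* was 2.33-fold higher in the apex (adjusted p = 0.0010), with a mean signal of 40.4 ± 5.44 (SD, n = 4) against 17.2 ± 1.39 in the base. Of 19 ligands, 3 favored the apex and 5 the base, together 42.1%, close to the 39.2% called of all genes. The brightest ligand, *Wnt5a*, which acts in the noncanonical branch, was 1.40-fold higher in the base (adjusted p = 4.4e-04). Of 11 enhancers of Wnt signaling, 4 favored the apex and 5 the base, together 81.8%. Among the 5 was *Wls*, the carrier that brings Wnts to the cell surface, by 1.19-fold (adjusted p = 0.017). Of 17 genes of the beta-catenin core, 7 favored the apex and 4 the base, together 64.7%. In that list the brightest, the nuclear cofactor *Pygo2*, was 1.16-fold higher in the base (adjusted p = 0.048).

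Of 10 genes listed as Wnt targets, 7 favored the apex and 2 the base, together 90.0%. Of all genes 39.2% were called, 17.6% as higher in the apex. *Nkd1*, a feedback inhibitor that binds Dishevelled, had apex signals of 483, 473, 486 and 499, middle-turn signals of 280, 284, 317 and 345 and base signals of 187, 182, 197 and 182. Its apex was 2.60-fold above its base (adjusted p = 2.3e-07), and that of its relative *Nkd2* 2.57-fold (adjusted p = 5.7e-05). Named after their values were seen, *Axin2*, the feedback scaffold, was 1.55-fold higher in the apex (adjusted p = 1.6e-05), and the matricellular proteins *Wisp1* and *Wisp2* were higher at the basal end, 1.98-fold and 1.51-fold. The median log2 difference of the 10 targets was 0.51.

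**Figure D5:**
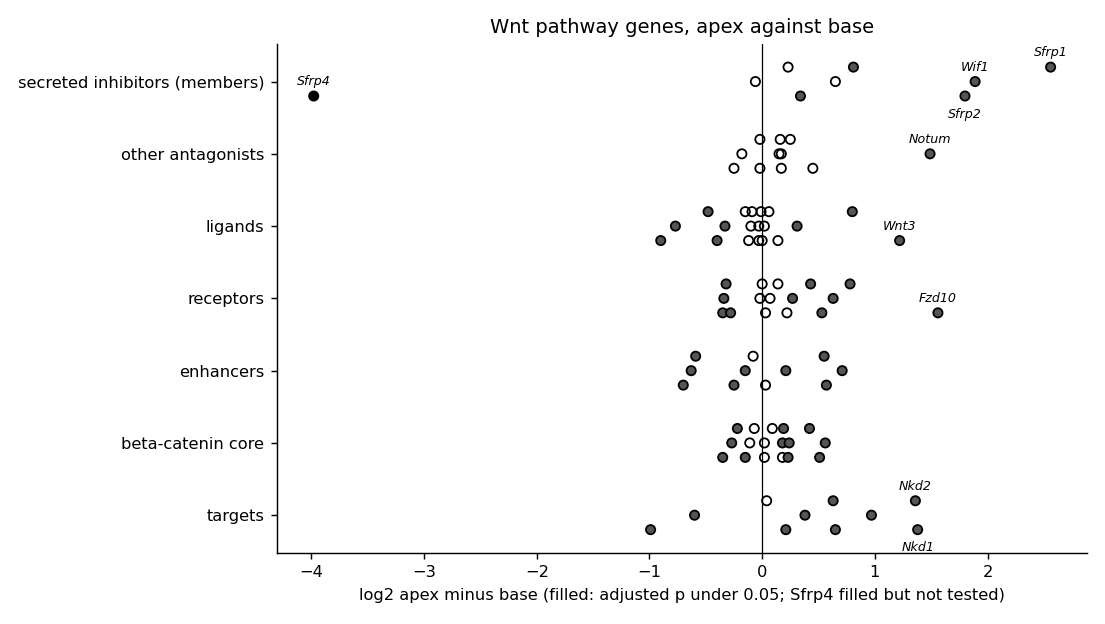
Log2 apex minus base of the 9 secreted inhibitors and the 84 measured Wnt pathway genes, grouped by role. Filled circles passed an adjusted p under 0.05 in limma and open circles did not, and *Sfrp4* is filled but was not tested. Names are given where the log2 difference is 1 or more in size, and *Sfrp4*, at -3.98, is the only such gene in the base direction.

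In the smaller steps, 31 of the 84 pathway genes were called between the middle turn and the base, 17 favoring the middle turn and 14 the base, where 20.9% of all genes were called. Between the apex and the middle turn 16 were called, 14 higher in the apex, where 4.42% of all genes were, and 2 higher in the middle turn, where 7.59% were. None of them reached 2-fold. Of the targets, 5 of 10 were higher in the apex than in the middle turn, against the 4.42% of all genes, and none was called lower. The brightest target, *Tnfrsf19*, a receptor of the tumor necrosis factor family, was 1.25-fold higher there (adjusted p = 0.022). The brightest genes of the other lists were named because no gene of a list reached 2-fold in these steps. Of them, *Wnt5a* was 1.34-fold higher in the base than the middle turn (adjusted p = 0.0034). *Fzd9*, a receptor, *Kremen1*, *Wls* and *Pygo2* were not called there (adjusted p = 0.13, 0.083, 0.078 and 0.29), nor was any of the 5 between apex and middle turn.

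Markers of cell types moved between the turns as well, and their part in these results was not tested. Counts below are of genes called between apex and base, where 39.2% of all genes were. All 6 hair cell genes were higher in the apex, with a summed signal of 978 to 1254 there, 795 to 867 in the middle turn and 281 to 391 at the base. *Slc26a5*, the outer hair cell motor prestin, had means of 347, 211 and 46.5 from apex to base. Of 6 neuron genes 4 favored the apex and 1 the base, with sums of 22628 to 29883 in the apex and 4977 to 20685 in the base. Of 6 Schwann cell genes 5 were higher in the apex, with sums of 12309 to 13926 against 5934 to 11789. All 6 spiral ligament fibrocyte genes were higher in the base, with sums of 648129 to 728275 against 352677 to 391812 in the apex and 463175 to 522441 in the middle turn. *Otos*, a product of those fibrocytes, stood 2.43-fold above its apex signal at the base. Of 7 fibroblast genes 2 favored the apex and 2 the base, and their sums did not overlap between turns, at 15375 to 18732 in the apex, 20487 to 23422 in the middle turn and 24644 to 37066 at the base. *Dcn*, the matrix proteoglycan decorin, was 2.67-fold higher at the base (adjusted p = 1.6e-05), and with a mean of 28889 there it made up most of the base sums. *Col3a1* was 1.32-fold higher at the base (adjusted p = 0.0038). The 2 that favored the apex were *Pdgfra*, by 2.16-fold (adjusted p = 8.4e-07), and *Lum*, by 1.67-fold (adjusted p = 3.3e-04). Of 6 stria vascularis genes 5 were higher in the base, with sums of 58340 to 79212 against 39114 to 46039. The 8 bone genes had apex sums of 1589 to 6203, middle-turn sums of 1983 to 2182 and base sums of 2752 to 3619, with 1 called, as higher in the base. *Sfrp4* on apex array 4, the array with the highest bone sum, was 94.7, against 58.5 to 89.1 on the other apex arrays, and a link was not tested.

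Without apex array 4 and base array 3 together, an alternative chosen after seeing the data, 5 of 8 members were again called between apex and base, all higher in the apex. *Sfrp1* was then 6.11-fold higher (adjusted p = 2.3e-06), *Sfrp2* 3.14-fold, *Wif1* 3.59-fold and *Dkk2* 1.69-fold, and *Sfrp4* was 16.5-fold higher in the base.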

How the data were processed

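Total RNA of 12 cochlear samples, 4 per turn, was hybridized to 1-color Agilent exon arrays. The deposited intensity values of the spots come from scans that the authors read with Agilent Feature Extraction 10.7.3.1. That software subtracted a background surface and a trend across the array, gave dim spots a small positive value and did no scaling between arrays. The value table of the series was identical. Probe positions are on mm9.

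Control spots and flagged spots were left out, which lost 119 of 165984 probes. Each array was scaled to a common 75th percentile, signals were log2 transformed, spots of a probe and then probes of a gene were averaged, and turns were compared with limma 3.58.1 in R 4.3.3 on all 12 arrays. A call was an adjusted p under 0.05 of the moderated contrast over all 19505 genes. The turn came from each label. Members and lists were chosen with earlier results of these data known. All members were named, with the pathway genes past 0.05 and 2-fold (at most 4 per list and contrast), the brightest gene of a list in any contrast with none, and the 5 genes nearest to *Sfrp4*. Marker lists of cartilage, skeletal muscle, erythroid and endothelial genes were also summed: 2, 0, 0 and 2 of their genes favored the apex over the base and 3, 2, 0 and 3 the base. Cartilage sums were 1085 to 1208 in the apex, 1085 to 1161 in the middle turn and 1729 to 2115 in the base. Of its genes, *Acan* was 6.27-fold higher in the base and *Hapln1* 3.59-fold higher in the apex. Skeletal muscle sums were 477 to 496, 480 to 594 and 614 to 829. Erythroid and endothelial sums overlapped between apex and base. Alternatives covered scaling, background, probe averaging, filters, call rules, a replicate block and each array left out. The test was tried on simulated data.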

Additional observations from a re-analysis of the deposited data

Results flagged for a closer look

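Of 27 groups of 4 arrays (9 members in 3 turns), 2 had a value far from the others, where chance gives about 1 in 20. *Wif1* on apex array 4 had a signal of 696 against 534 to 546 on the other apex arrays, a gap of 0.912 of the group's log2 range. *Wif1* on middle array 1 had 303 against 350 to 359, a gap of 0.836 of the range. On apex array 4 the summed bone signal was 6203, and its part in the *Wif1* value was not tested.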

How the results depend on the processing

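Of 678 recomputed values of single members, 632 were counted as unchanged, and of 186 counts 169 stayed within 1.5 times. Unchanged meant the same direction and call. For the untested differences of *Sfrp4* from the base it meant the same direction and a shift smaller than the within-turn SD. Some alternatives could not move a difference, such as the identical value table or leaving out an array of a turn not compared. With a 2-fold requirement and an F test, limma's or the methods' one-way test, members called fell to 3 (apex and base), 2 (middle turn and base) and 2 (apex and middle turn), member probes to 14, and pathway genes to 5, 0 and 0; at an adjusted p alone these pathway counts were 48, 31 and 16. The median over probes gave 9 pathway genes between apex and middle turn. With each array left out in turn, pathway genes called ran from 40 to 47 (apex and base), 18 to 30 (middle turn and base, 18 without base array 2) and 9 to 18 (apex and middle turn, 9 without apex array 2).

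Some differences changed sign. *Dkk3* between middle turn and base was -0.04 with scaling to the median, -0.24 to the spike-in probes, -0.08 with linear averaging and -0.02 to 0.05 with arrays left out. *Sfrp5* was -0.19 (apex and base) and -0.01 (middle turn and base) with spike-in scaling, and between apex and middle turn 0.05 with the median over probes and -0.11 to 0.13 with arrays left out. *Dkk1*, whose spots are mostly in the background, gave a nominal -0.14 between apex and middle turn without apex array 4, alone or with base array 3, and up to 0.55 with other arrays left out. Called differences that turned were *Frzb* between apex and base, from 0.34 to -0.08 with spike-in scaling, and *Sfrp2* between middle turn and base, from 1.06 to -0.01 with linear averaging (adjusted p = 0.94). *Dkk2* between middle turn and base lost its call in 7 of 12 arrays left out. The causes were not tested.

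The turns shared mice, but the labels do not say whether equal replicate numbers mark 1 mouse, so the numbers were not used as pairs. The main fit thus treated the arrays of different turns as independent. Same-number arrays had a mean correlation of 0.095 (6 of 12 pairs over 0.1) and others -0.031, and 8 of 12 arrays correlated best with their own number, a hint from the data alone. With the replicate block, 5, 4 and 6 members, 26 member probes and 49, 38 and 22 pathway genes were called. Dim probes limit *Dkk1* and the lower *Sfrp2* values.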
